A study of Arabidopsis thaliana with 12 samples.

Results

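The 2 trb45 lines of Arabidopsis thaliana, plant lines that the study describes as independent and that both carry the genotype trb45, were compared with each other by RNA sequencing of whole seedlings. The comparison used 6 of the 12 libraries of the study, 3 of trb45 line 1 and 3 of trb45 line 2. Genes were joined by identifier across the lines' tables of values, and interest lay in those whose 3 libraries of 1 line all fell outside the range of the other line. Of 20220 genes listed for both lines, 4923 met this rule, 1603 with line 1 above line 2 and 3320 with line 1 below, a split that depends on the FPKM scaling, as given below. Of the 18700 genes with enough signal to test, 4682 met it.

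The study asked what TRB4 and TRB5 do, and its other libraries were 3 of WT plants of the Col0 accession and 3 of a trb123 triple mutant. Plants of every group were untreated seedlings aged 7 days, grown at 23 °C on medium with 1% sucrose in long days of 16 h light, after a cold period of 2 days at 4 °C without light. The labels give neither the alleles of the mutated genes nor the way the lines were made, and they do not say whether the 3 libraries of a line came from separate cultures. The p-values below therefore measure the spread between these libraries, which may be technical.

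TRB proteins are plant telomere repeat binding proteins with a Myb domain and a histone-like domain. They bind telomeric repeats and also the telobox, a short motif of the same sequence found in many promoters, and they are known as recruiters of Polycomb repressive complex 2 (PRC2), which trimethylates histone H3 at lysine 27 and keeps genes silent. When 2 independent lines of 1 genotype are set side by side, what they share bears on the mutated genes, and what they do not share is the subject here.

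All values are FPKM, fragment numbers that the authors normalised for gene length and library size. Depths inferred from the steps between low FPKM values lay between 23510000 and 24330000 fragments per trb45 library, and 17601 to 17766 genes per library had at least 1 FPKM. On the log2(FPKM + 1) scale the libraries of line 2 correlated with each other at Pearson's r of 0.983 to 0.992 across genes, which are not independent replicates. Line 1 replicates 1 and 2 correlated at 0.984, and replicate 3 of that line at only 0.974 and 0.973 with them. Line 1 replicate 3 was closer to the libraries of line 2, with r of 0.989, 0.991 and 0.98. It also held more RNA of seed storage genes than the rest. The summed FPKM of 7 seed markers was 477.73 in line 1 replicate 3 and 128.63 in line 2 replicate 2, and between 2.35 and 11.68 in the other 4 trb45 libraries. Summed root markers lay between 302.81 and 389.52 FPKM in line 1 and between 140.03 and 290.05 in line 2, so these sums did not overlap. Taken singly, all 10 tested root genes overlapped between the lines on FPKM. Summed markers of green tissue (114417 to 127713 FPKM in line 1, 122348 to 130083 in line 2) and of shoot apex, stomata and trichomes (36.01 to 47.31 and 35.17 to 58.19) overlapped. In whole seedlings, fewer cells of a type and less RNA per cell cannot be told apart.

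The mutated genes were examined first. TRB5 (AT1G72740) was at 3.39, 2.85 and 3.51 FPKM in line 1 and 3.3, 3.11 and 2.96 in line 2, against 12.54, 11.82 and 11.04 in WT. TRB4 (AT1G17520), which overlaps the neighbouring gene AT1G17530, was at 4.58, 5.34 and 2.96 FPKM in line 1 and 4.89, 4.45 and 6.1 in line 2, against 11.04, 8.37 and 8.16 in WT. For both genes the ranges of the lines overlapped, and all 6 trb45 libraries lay below all WT libraries. The difference between the lines was 0.04, SE 0.10, adjusted p = 0.797 for TRB5 and -0.23, SE 0.18, adjusted p = 0.39 for TRB4 (log2(FPKM + 1), line 1 minus line 2, limma with Benjamini-Hochberg adjustment). TRB1, TRB2 and TRB3, which are intact in the labelled genotype, were not called either, with differences of -0.00, -0.09 and 0.19 and limma adjusted p-values of 0.989, 0.586 and 0.479. The signs of the differences of TRB1, TRB3 and TRB5 turned under some settings, and none of the 5 was called under any setting tried. An exact two-sided permutation test gave p from 0.2 to 1 for the 5 genes, where 3 libraries against 3 cannot give less than 0.1.

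Across the transcriptome a small share of genes passed the limma threshold between the lines, most of them by less than 2-fold. The unadjusted limma p was under 0.05 for 5551 of 18700 genes, so the share that passed does not measure how many genes differ. In limma with all 12 libraries, 865 of 18700 genes (4.63%) passed an adjusted p of 0.05, which is what "called" means below. Of these, 388 (2.07%) were higher in line 1 and 477 (2.55%) were lower. Non-overlap by itself was common: it held for 25% of all genes tested, with line 1 above for 8.07% and below for 17%. After scaling by median-ratio size factors line 1 lay above for 11.8% and below for 12.2% (2204 and 2267 genes, against 1509 and 3173 on FPKM), so the lean of non-overlap to the lower side was not seen with that scaling. Both conditions were met by 852 genes (4.56%), 382 higher in line 1 (2.04%) and 470 lower (2.51%), and these 852 are the genes described here. The other 3830 non-overlapping genes were not called, and 13 genes were called although their libraries overlapped. A difference of at least 2-fold, that is 1 on the log2 scale, was reached by 80 called genes (0.428%), 69 of them higher in line 1 (0.369%) and 11 lower (0.0588%). The median size of the difference was 0.7 among the 382 genes and -0.495 among the 470, against a median of -0.056 over all genes tested. The balance between higher and lower calls changed with the scaling. With median-ratio size factors, which moved the median of all genes to -0.007, the calls were 575 on the higher side of line 1 and 273 on the lower. With quantile normalization they were 487 and 419. The split at 2-fold was not recomputed with other scalings.

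Most of these calls lay close to the threshold, and they depended on single libraries. The limma adjusted p was under 0.01 for only 4 genes, and 786 of the 865 had an adjusted p between 0.03 and 0.05. The gene just inside the threshold was AT4G35910 (adjusted p = 0.0499, difference -0.35) and the one just outside was AT4G38760 (adjusted p = 0.0502, difference -0.45). Without line 1 replicate 3, limma called 5180 genes (27.7%), among them all 865. Without line 1 replicate 1 it called 20, and without line 1 replicate 2 it called 4. Without line 2 replicate 1, 2 or 3 it called 4, 914 and 15. A fit with the 6 trb45 libraries alone, which has less information on the spread, called only BSU1 and AT4G13495, while 3597 genes had an unadjusted p under 0.05. The fit with all 12 libraries takes 1 spread per gene for all 4 groups. Line 1 libraries correlated less with each other (r of 0.973 to 0.984) than those of WT (0.991 to 0.993) or trb123 (0.989 to 0.996). The shared spread may therefore understate that of line 1. When line 1 replicate 3 alone was set against line 2, limma called 7 genes (0.0374%).

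**Figure D1:**
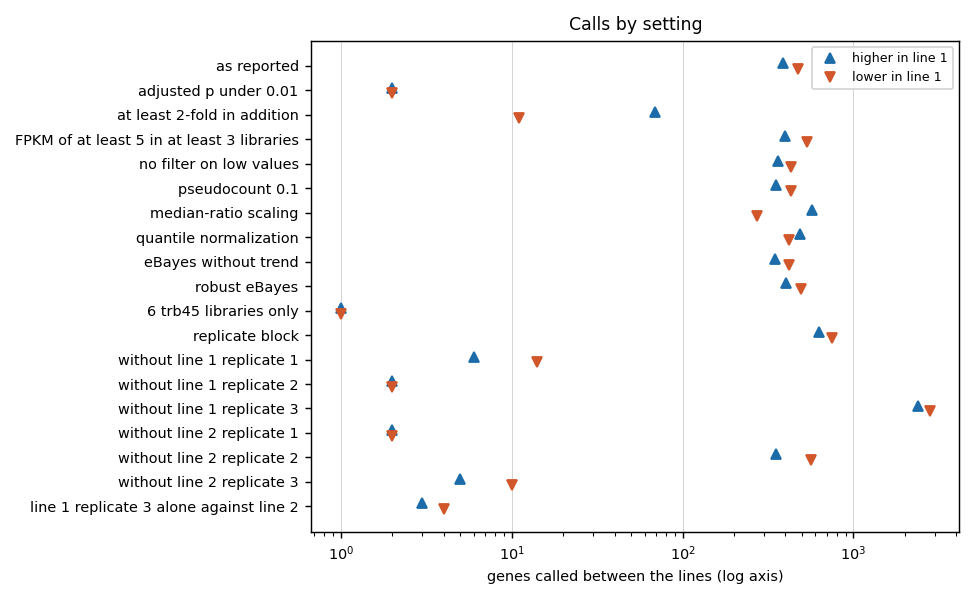
Number of genes called between the lines (x axis, logarithmic) under each setting (y axis), with upward triangles for genes higher in line 1 and downward triangles for genes lower in line 1. The 388 and 477 calls as reported rise to 2374 and 2806 without line 1 replicate 3, and fall to 6 and 14 without line 1 replicate 1.

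Only 4 genes were called in each of the 6 limma fits that left out 1 trb45 library: BSU1 and AT5G60530, higher in line 1, and AT4G13495 and AT5G35480, lower in line 1. They were also the 4 with an adjusted p under 0.01. BSU1 and AT5G60530 were singled out after their values were seen.

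BSU1 (AT1G03445) encodes a phosphatase that acts in brassinosteroid signalling. It was at 2.45, 3.1 and 2.33 FPKM in line 1 and 0.28, 0.2 and 0.48 in line 2, with 0.15, 0.2 and 0.21 in WT and 0.3, 0.34 and 0.21 in trb123. Every library of line 1 lay above every other library of the study, while line 2 was at the low level of WT and trb123. All libraries outside line 1 were at 0.48 FPKM or less. BSU1 thus passed the filter of 1 FPKM in 3 or more libraries only through the line where it was high. The values that follow describe a gene that was tested because of that line. The difference was 1.46, SE 0.12, adjusted p = 0.000265 (limma), and 1.37 to 1.54 when single libraries were left out. Against WT, BSU1 was called in line 1 (1.61, limma adjusted p = 8.26e-06) and not in line 2 (0.15, adjusted p = 0.357); these comparisons share the WT libraries.

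AT5G60530, annotated as related to late embryogenesis abundant proteins, was at 57.3, 48.76 and 37.49 FPKM in line 1 and 21.18, 16.94 and 15.76 in line 2. The libraries of line 1 were all above those of line 2, which lay at the level of WT (23.05, 16.98 and 20.99) and trb123 (19.98, 19.18 and 19.02). Line 1 replicate 3 was the lowest of its line and still well above line 2. Means were 47.9 ± 9.94 FPKM in line 1 and 18 ± 2.85 in line 2 (SD, n = 3; 1.36, SE 0.16, adjusted p = 0.00488, limma), and the difference was 1.22 to 1.52 when single libraries were left out.

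AT5G35480, which encodes an uncharacterised protein, was at 1.25, 2.24 and 2.51 FPKM in line 1 and 6.9, 8.46 and 5.9 in line 2. WT had 0.66, 0.95 and 0.91 FPKM and trb123 had 1.88, 1.48 and 2.02, so that line 2 stood above every other group. The difference between the lines was -1.44, SE 0.17, adjusted p = 0.00488 (limma). Against WT the gene was called higher in both lines, by 0.68 in line 1 (limma adjusted p = 0.0155) and by 2.13 in line 2 (adjusted p = 1.16e-05).

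AT4G13495 is a non-coding RNA gene whose annotated span holds 3 microRNA genes on the same strand, MIR5026 (AT4G06075), MIR850 (AT4G13493) and MIR863 (AT4G13494). It was at 17.32, 16.29 and 14.88 FPKM in line 1 and 34.63, 39.89 and 38.16 in line 2, with means of 16.2 ± 1.22 FPKM in line 1 and 37.6 ± 2.68 in line 2 (SD, n = 3). Within each line the 3 libraries were close together, line 1 replicate 3 included, and the lines were clearly apart. WT was higher than both lines (86.4, 87.7 and 88.21 FPKM) and trb123 was higher still (242.68, 199.46 and 267.85). The difference between the lines was -1.17, SE 0.11, adjusted p = 0.000847 (limma), and -1.22 to -1.11 when single libraries were left out. Against WT it was called lower in both lines, by -2.37 in line 1 (limma adjusted p = 1.52e-07) and -1.20 in line 2 (adjusted p = 3.75e-05). Reads from this gene and from the microRNA precursors inside it could not be told apart, because how fragments were counted is not given in the sources used here.

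The mature microRNAs that the reference annotates inside AT4G13495 are shown because this transcript was the one with the lowest adjusted p among the genes lower in line 1; bases 2 to 8, the seed, are in capitals, and each is written 5′ to 3′ as DNA of the plus strand of chromosome 4 in the TAIR10.1 assembly (RefSeq). None of the 3 shares its seed with another. The libraries were made from polyadenylated RNA, so the mature forms themselves were not measured.
miR5026: aCTCATAAgatcgtgacacgt
miR850: tAAGATCCggactacaacaaag
miR863-5p: tTATGTCTtgttgatctcaat

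Windows upstream of gene starts were read from the same assembly, because TRB proteins bind the telobox. The telobox was searched as AAACCCTA and as its reverse complement TAGGGTTT, from 250 bases upstream to 50 bases downstream of each gene start. It was present in 1020 of 18612 tested genes with a window (5.48%), in 15 of 380 called genes higher in line 1 (3.95%) and in 22 of 467 called genes lower in line 1 (4.71%). Among the 4 genes kept in every fit, only AT4G13495 had a match, and it had 1 in each orientation. AT4G12290, a gene described below, had 1 match and BSU1 had none. Matches are in capitals, and the 3 windows are written 5′ to 3′ in the direction of each gene. That of AT4G13495 is chr4:7842717-7843016 (plus strand), that of AT4G12290 is chr4:7303735-7303984 (plus strand) and that of BSU1 is chr1:859702-859951 (minus strand); the windows of AT4G12290 and BSU1 end at the gene start. A match is only a description of these letters.
AT4G13495: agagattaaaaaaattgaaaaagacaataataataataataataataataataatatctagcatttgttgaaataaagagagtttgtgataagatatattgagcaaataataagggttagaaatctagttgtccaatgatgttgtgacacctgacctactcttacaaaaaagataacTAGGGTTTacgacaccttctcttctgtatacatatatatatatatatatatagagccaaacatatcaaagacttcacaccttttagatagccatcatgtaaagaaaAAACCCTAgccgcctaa
AT4G12290: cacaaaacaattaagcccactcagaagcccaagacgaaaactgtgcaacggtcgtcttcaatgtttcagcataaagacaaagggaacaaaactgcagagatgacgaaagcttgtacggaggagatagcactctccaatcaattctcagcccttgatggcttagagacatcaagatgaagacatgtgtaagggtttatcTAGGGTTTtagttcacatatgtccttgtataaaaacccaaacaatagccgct
BSU1: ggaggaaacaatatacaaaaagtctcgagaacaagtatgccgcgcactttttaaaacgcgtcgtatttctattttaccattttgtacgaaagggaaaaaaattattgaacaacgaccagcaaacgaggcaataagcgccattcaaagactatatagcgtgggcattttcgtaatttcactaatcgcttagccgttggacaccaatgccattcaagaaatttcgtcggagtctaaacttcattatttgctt

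A further 5 genes, all lower in line 1, were called in 4 of the 6 fits that left out 1 library, and were singled out after their values were seen. They missed the threshold without line 1 replicate 2 or without line 2 replicate 1, with limma adjusted p-values of at most 0.0708. RPP4 (AT4G16860), an immune receptor gene, was at 9.94, 10.13 and 11 FPKM in line 1 and 18.39, 17.55 and 19.43 in line 2 (-0.78, SE 0.10, adjusted p = 0.0106, limma). It belongs to a cluster of similar genes, so its reads may be shared with its relatives. AT4G12290, annotated as a copper amine oxidase, was at 5.23, 4.39 and 5.16 FPKM in line 1 and 10.87, 9.94 and 8.4 in line 2 (-0.85, SE 0.11, adjusted p = 0.0106). LBO1 (AT3G21420), an oxidoreductase of strigolactone synthesis, was at 1.88, 2.05 and 2.63 FPKM in line 1 and 4.5, 4.84 and 4.24 in line 2 (-0.80, SE 0.11, adjusted p = 0.0131). CYP89A9 (AT3G03470), a cytochrome P450 of chlorophyll breakdown, was at 25.18, 21.77 and 24.95 FPKM in line 1 and 37.3, 43.43 and 38.31 in line 2 (-0.70, SE 0.10, adjusted p = 0.0131). For each of these genes the libraries of line 1 were close to one another and below all libraries of line 2. MAF5, the other of the 5, is described with the flowering genes.

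**Figure D2:**
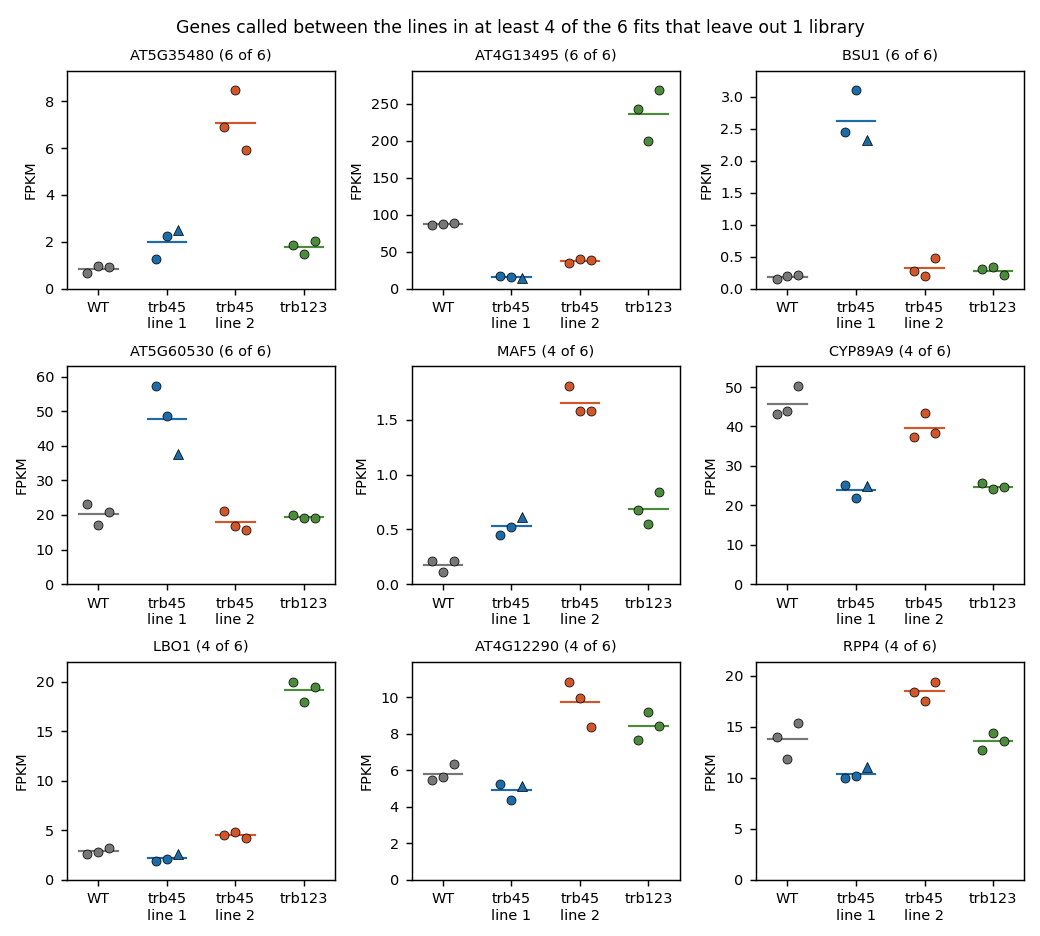
FPKM (y axis, from 0) in the 12 libraries by group (x axis) for the 9 genes called between the lines in at least 4 of the 6 fits that left out 1 library, with that number in each title. Points are libraries, the triangle is line 1 replicate 3 and bars are means of 3 libraries; in each panel the triangle lies with the other libraries of line 1.

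Since line 1 replicate 3 was closer to line 2 than to its own line over all genes, its place was measured for each of the 852 genes. On a scale with 0 at the mean of line 2 and 1 at the mean of line 1 replicates 1 and 2, the median position of replicate 3 was 0.582, with quartiles of 0.389 and 0.818. It lay on the side of its own line for all 852, as the rule of non-overlap required. For 334 genes it was under 0.5, nearer to line 2, and for 274 it was at 0.75 or above. Genes higher in line 1 had a median position of 0.468 and genes lower in line 1 one of 0.654. Of the 334, 210 were higher in line 1, and of the 274, 190 were lower. In log2 terms the 382 genes higher in line 1 had a median difference of 0.853 in replicates 1 and 2 and of 0.385 in replicate 3, and for the 470 lower genes these were -0.569 and -0.377. Both differences were taken from the same libraries of line 2, so their common direction is not independent.

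**Figure D3:**
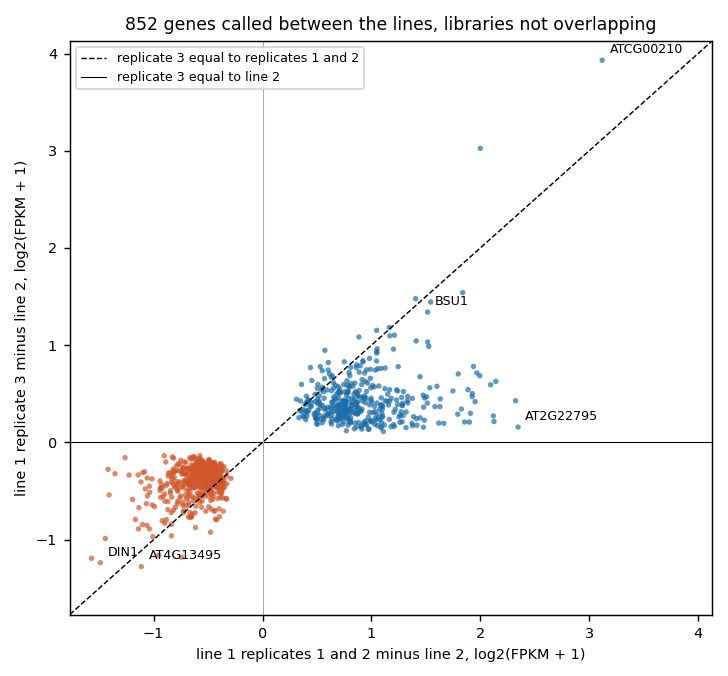
Difference from the mean of line 2 in log2(FPKM + 1) for each of the 852 genes, in line 1 replicates 1 and 2 (x axis) and in line 1 replicate 3 (y axis). Blue points are genes higher and orange points genes lower in line 1; many of the largest blue differences lie far under the dashed line of equality, such as AT2G22795, while BSU1 and AT4G13495 lie close to it.

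The largest differences with line 1 on the higher side were taken by a rule, as the 12 largest among called, non-overlapping genes that averaged 5 FPKM or more in 1 of the lines. They were ATCG00210, ATCG00030, EXT13, AT5G46730, CAF1A, AT2G22795, AT4G37240, MED9, TCH2, AT1G07135, EXT12 and AT5G23760, with the largest log2 difference, 3.39, in ATCG00210. EXT13 (AT5G35190), an extensin-like cell wall protein gene, was at 283.58, 161 and 173.71 FPKM in line 1 and 62.7, 114.56 and 28.4 in line 2 (1.74, SE 0.40, adjusted p = 0.0409, limma). Its relative EXT12 (AT4G13390) was at 208.36, 137.53 and 157.95 FPKM in line 1 and 59.14, 102.68 and 30.95 in line 2 (1.51, SE 0.35, adjusted p = 0.0409). Line 1 was at the level of WT for both (194.46, 305.58 and 185.75 FPKM for EXT13), and line 2 was below it, most of all in its replicate 3. These genes thus ran with the summed root markers given above, whose part in the result was not tested.

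MED9 (AT1G55080), a subunit of the Mediator complex that links transcription factors to RNA polymerase II, was at 59.85, 57.53 and 23.08 FPKM in line 1 and 14.15, 16.49 and 11.66 in line 2 (1.56, SE 0.27, adjusted p = 0.0269, limma). CAF1A (AT3G44260), a deadenylase that shortens the tails of messenger RNAs, was at 37.05, 48.33 and 14.16 FPKM in line 1 and 8.41, 10.76 and 7.54 in line 2 (1.64, SE 0.40, adjusted p = 0.0433). TCH2 (AT5G37770), a calmodulin-like protein gene known for its rise on touch, was at 34.12, 52.07 and 18.37 FPKM in line 1 and 11.14, 11.97 and 8.09 in line 2 (1.55, SE 0.28, adjusted p = 0.0288), and overlaps AT5G37760. In these 3 genes line 1 replicate 3 lay between its own line and line 2.

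The same held more strongly for the uncharacterised gene AT2G22795, at 72.3, 58.07 and 13.43 FPKM in line 1 and 12.79, 11.89 and 11.17 in line 2, where replicate 3 of line 1 was hardly above line 2. WT had 67.86, 61.14 and 68.03 FPKM for this gene, near line 1 replicates 1 and 2. AT5G46730, annotated as a glycine-rich protein, was at 10.3, 5.65 and 1.33 FPKM in line 1 and 0.89, 0.23 and 1.23 in line 2, again with replicate 3 beside line 2. AT5G23760, of a copper transport family and overlapping AT5G23770, was at 19.92, 28.83 and 5.94 FPKM in line 1 and 5.7, 5.42 and 3.41 in line 2. AT1G07135, another glycine-rich protein gene, was at 14.84, 17.34 and 6.15 FPKM in line 1 and 3.3, 3.64 and 3.14 in line 2, above WT (2.48, 2.73 and 1.73) in all libraries of both lines. AT4G37240 was at 13.3, 15.77 and 4.47 FPKM in line 1 and 3.1, 2.97 and 1.93 in line 2.

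Of these 12, only ATCG00210 remained called without line 1 replicate 1, and none without line 1 replicate 2, line 2 replicate 1 or line 2 replicate 3. Without line 2 replicate 2, 7 of the 12 were called, and without line 1 replicate 3 all 12.

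The 12 largest differences with line 1 on the lower side were AT5G35480, DIN1, AT1G05835, AT4G13495, AT2G41200, PME5, AT2G47895, OEP7, CYP81D8, ATCG00820, MT3 and AT1G72060, from -1.44 to -0.99 on the log2 scale. AT1G05835, annotated as a PHD finger protein and overlapping AT1G04433 and AT1G05840, was at 10.08, 10.13 and 14.23 FPKM in line 1 and 28.95, 21.22 and 40.41 in line 2 (-1.29, SE 0.19, adjusted p = 0.0181, limma). Line 2 overlapped WT (26, 21.51 and 23.92) and line 1 was below both. PME5 (AT5G47500), a pectin methylesterase of the cell wall, was at 20.25, 14.68 and 20.71 FPKM in line 1 and 42.27, 26.25 and 54.12 in line 2 (-1.06, SE 0.21, adjusted p = 0.0365), with the same order of groups (38.44, 32.96 and 45.82 in WT).

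CYP81D8 (AT4G37370), a cytochrome P450 gene, was at 6.65, 2.83 and 3.69 FPKM in line 1 and 9.73, 9.8 and 8.92 in line 2 (-1.02, SE 0.20, adjusted p = 0.0338, limma). AT1G72060, annotated as a serine-type endopeptidase inhibitor and overlapping AT1G72070, was at 15.47, 9.46 and 14.16 FPKM in line 1 and 23.89, 29.7 and 25.87 in line 2 (-0.99, SE 0.17, adjusted p = 0.0278). For these 2 genes both lines lay above WT, line 2 more than line 1, since WT had 1.6, 2.11 and 2.38 FPKM of CYP81D8 and 6.52, 6.72 and 6.73 of AT1G72060. MT3 (AT3G15353), a metallothionein that binds metals and overlaps AT3G15352 and AT3G03105, was at 171.42, 155.2 and 334.8 FPKM in line 1 and 409.61, 373.28 and 479.92 in line 2 (-1.01, SE 0.22, adjusted p = 0.0394). OEP7 (AT3G52420), a protein of the outer envelope of the chloroplast, was at 9.11, 9.76 and 21.99 FPKM in line 1 and 28.56, 25.81 and 26.31 in line 2 (-1.04, SE 0.25, adjusted p = 0.0439), and the uncharacterised AT2G41200 at 4.1, 4.81 and 8.94 FPKM in line 1 and 13.28, 11.94 and 15.34 in line 2. In MT3, OEP7 and AT2G41200 line 1 replicate 3 was the highest of its line and nearer to line 2.

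AT2G47895 is a non-coding RNA annotated as antisense to AT2G47900. It was at 3.06, 1.32 and 2.98 FPKM in line 1 and 5.62, 6.43 and 5.66 in line 2 (-1.04, SE 0.23, adjusted p = 0.0394, limma). The library kit keeps strand but the counting method is not given in the sources used here, so its reads could not be told apart from those of AT2G47900 and AT2G47890. Of the 12 lower genes, AT5G35480 and AT4G13495 were called in every fit that left out a library. Without line 1 replicate 1, CYP81D8 and AT1G72060 were called as well, and without line 2 replicate 3, AT1G05835 was. Without line 2 replicate 2, 10 of the 12 were called, and without line 1 replicate 3 all 12.

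**Figure D4:**
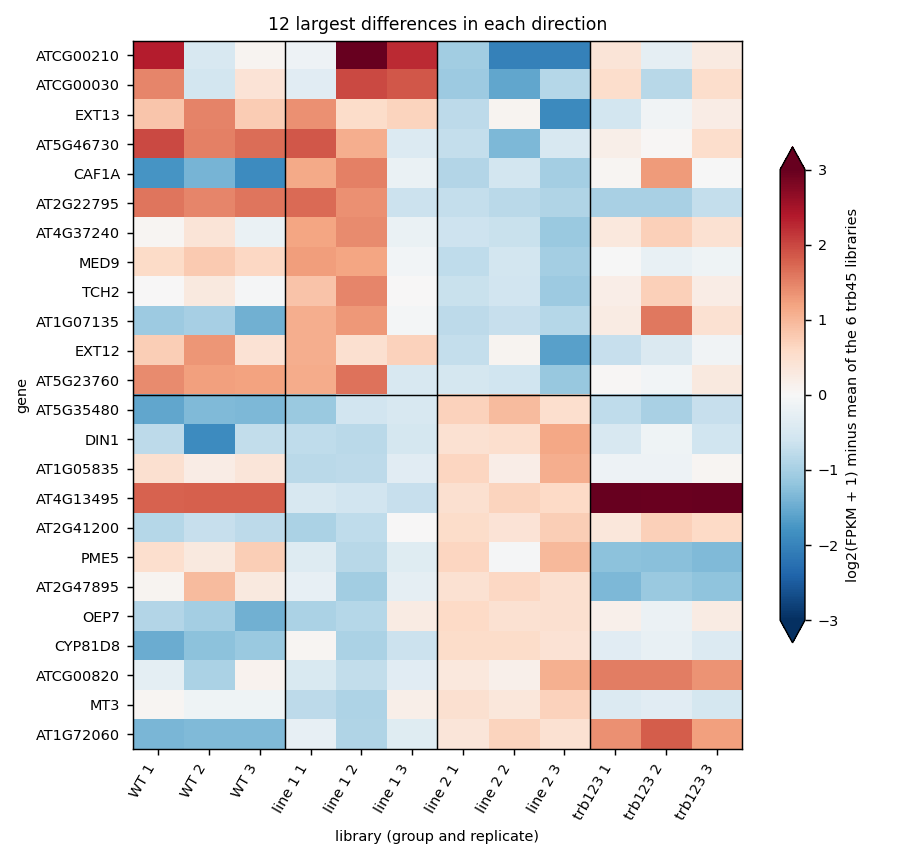
Level of the 12 largest differences in each direction (y axis) in every library (x axis), as log2(FPKM + 1) minus the mean of the 6 trb45 libraries; the colours saturate at -3 and 3. In the upper 12 genes line 2 is mostly blue and line 1 replicates 1 and 2 are mostly red. Line 1 replicate 3 has the colour of line 2 in many of them, such as AT2G22795, AT5G46730 and AT5G23760. In the lower 12 genes the order is mostly the reverse, and line 1 replicate 3 has the colour of line 2 in OEP7 and MT3.

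Gene lists were then read by their counts, against the shares of all genes tested given above. In the rapid stress response list, early-induced genes such as those of ERF, ZAT and WRKY transcription factors, 29 of 30 tested members were above 0 and 4 were called, all higher in line 1 (2.07% of all genes were), with a list median of 0.47 against -0.056 for all genes tested. The libraries of 19 members did not overlap, all with line 1 above, where 8.07% of all genes did so. The called members were CAF1A, TCH2, ERF105 and MYB44. ERF105 (AT5G51190), an ethylene response factor gene that overlaps AT5G51180, was at 20.53, 23.22 and 20.72 FPKM in line 1 and 9.03, 11.59 and 7.29 in line 2 (1.15, SE 0.25, adjusted p = 0.0394, limma), and WT was far lower at 1.06, 1.15 and 1.23. MYB44 (AT5G67300), a transcription factor gene of stress signalling with 3 overlapping neighbours, was at 60.37, 71.27 and 47.04 FPKM in line 1 and 41.67, 43.31 and 35.54 in line 2 (0.54, SE 0.13, adjusted p = 0.0433).

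In the heat shock list, chaperones and their regulators, all 14 tested members were above 0 (median 0.417). Of these, 5 were called higher in line 1 (2.07% of all genes were). The libraries of 8 did not overlap, none with line 1 below, where 8.07% of all genes had line 1 above. The small chaperone HSP17.6II (AT5G12020) was at 2.56, 2.99 and 3.05 FPKM in line 1 and 0.65, 0.94 and 0.89 in line 2 (1.08, SE 0.17, adjusted p = 0.0205, limma), with 2.08, 2.46 and 1.15 in WT. HSP17.4 (AT3G46230), which overlaps AT3G46220 and AT3G07365, was at 3.29, 4.98 and 1.49 FPKM in line 1 and 0.62, 1.14 and 0.34 in line 2 (1.26, SE 0.30, adjusted p = 0.0433). Line 1 replicate 3 was the highest of its line for HSP17.6II and the lowest for HSP17.4, and all values of both genes were low.

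MBF1C (AT3G24500), a transcriptional coactivator of heat tolerance with 3 overlapping neighbours, was at 22.53, 34.09 and 21.79 FPKM in line 1 and 13.77, 17.71 and 16.76 in line 2 (0.65, SE 0.17, adjusted p = 0.0497, limma). AT1G53540, a further small chaperone gene, was at 2.74, 1.88 and 0.78 FPKM in line 1 and 0.27, 0.5 and 0.28 in line 2 (0.99, SE 0.22, adjusted p = 0.0408). The fifth call, HSP70 (AT3G12580), had a difference of 0.57 (adjusted p = 0.0433).

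In both lists the median was larger in line 1 replicates 1 and 2 (0.573 for rapid stress, 0.52 for heat shock) than in replicate 3 (0.302 and 0.24). No member of either list was called without line 1 replicate 1, without line 1 replicate 2, without line 2 replicate 1 or without line 2 replicate 3. Without line 1 replicate 3, 10 members of each list were called, all higher in line 1. With scaling by median ratio the called counts were again 4 and 5, and 20 and 9 members did not overlap, all with line 1 above (11.8% of all genes with that scaling). Against WT the lists went apart. Of 30 rapid stress genes, 21 were called higher and 0 lower in line 1, and 12 and 1 in line 2. Of 14 heat shock genes, 1 was called higher and 5 lower in line 1, and 0 and 8 in line 2. Of all genes, 7.77% and 10.4% were called so in line 1, and 14.9% and 15.6% in line 2.

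**Figure D5:**
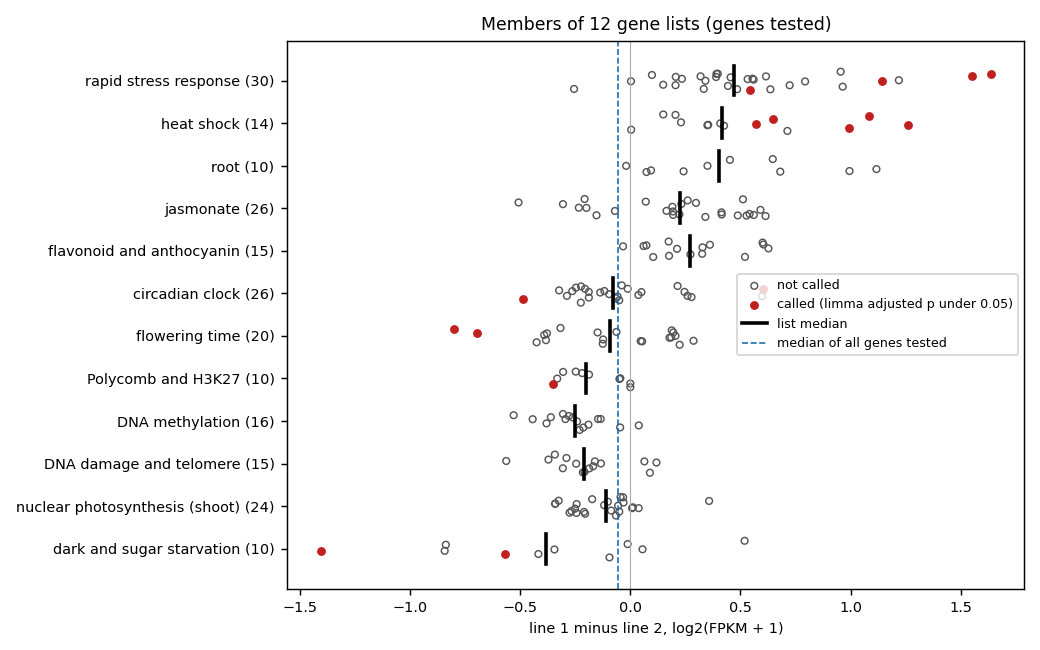
Difference between the lines in log2(FPKM + 1) (x axis, line 1 minus line 2) for each tested member of 12 gene lists (y axis, number tested in brackets). Filled red points are called, open points are not, black bars are list medians and the dashed line is the median of all genes tested; rapid stress and heat shock members lie to the right, and dark and sugar starvation members mostly to the left.

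The dark and sugar starvation list, genes that rise when sugars run low, was on the other side. Of 10 tested members 2 were called, both lower in line 1 (2.55% of all genes were), with a list median of -0.381. The libraries of 6 did not overlap, all with line 1 below (17% of all genes did so). After median-ratio scaling 5 did so, against 12.2% of all genes. DIN1 (AT4G35770), a dark-inducible gene also used as a marker of leaf senescence, was at 40.74, 39.1 and 47.71 FPKM in line 1 and 95.59, 99.03 and 155.8 in line 2 (-1.41, SE 0.27, adjusted p = 0.0336, limma). All line 1 libraries lay near WT (39.79, 18.06 and 41.63), and line 2 was higher, most of all in its replicate 3. TPS10 (AT1G60140), of the trehalose phosphate synthase family, was at 9.07, 8.94 and 11.29 FPKM in line 1 and 13.59, 14.39 and 16.96 in line 2 (-0.57, SE 0.13, adjusted p = 0.0408). DIN6, the asparagine synthetase gene, was at 33.42, 37.56 and 32.36 FPKM in line 1 and 55.19, 48.6 and 89.64 in line 2, and BCAT2, for the breakdown of branched amino acids, had a difference of -0.84; both missed the threshold (limma adjusted p = 0.0644 and 0.0621). No member was called without line 1 replicate 1, line 1 replicate 2, line 2 replicate 1 or line 2 replicate 3.

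Among flowering time genes, 2 of 20 tested were called, both lower in line 1 (2.55% of all genes were), and 7 did not overlap, all with line 1 below (35% of the list, 17% of all genes; median -0.093). After median-ratio scaling 7 again had line 1 below (12.2% of all genes) and 1 above. The called genes were MAF5 (AT5G65080) and MAF4 (AT5G65070), adjacent relatives of the floral repressor FLC. MAF5 was at 0.45, 0.52 and 0.61 FPKM in line 1 and 1.81, 1.58 and 1.58 in line 2, with 0.21, 0.11 and 0.21 in WT and 0.68, 0.55 and 0.84 in trb123. The lines were well apart and line 1 replicate 3 stood with its own line (-0.80, SE 0.10, adjusted p = 0.0106, limma). Only the libraries of line 2 reached 1 FPKM. MAF5 thus passed the filter of 1 FPKM in 3 or more libraries only through the line where it was high. MAF4 was at 0.61, 0.93 and 1.01 FPKM in line 1 and 1.87, 1.8 and 2.3 in line 2 (-0.70, SE 0.15, adjusted p = 0.0389), and line 1 overlapped WT (0.24, 0.86 and 0.66). It reached 1 FPKM only in line 2 and in line 1 replicate 3. FLC itself overlapped between the lines (3.04, 4.62 and 5.43 FPKM in line 1 and 5.81, 5.18 and 7.4 in line 2; difference -0.43, adjusted p = 0.155), and FLM and MAF2 had differences of -0.38 and -0.38, with adjusted p-values of 0.0526 and 0.0559. These genes are similar in sequence, so that reads may have been divided between them. MAF5 was not called without line 1 replicate 2 or line 2 replicate 1 (adjusted p at most 0.0655). MAF4 was called only without line 1 replicate 3 and without line 2 replicate 2, and the levels of both were low, at most 2.3 FPKM in the trb45 libraries.

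The lists that touch chromatin held few calls. Of 10 Polycomb and histone H3 lysine 27 genes, 4 did not overlap, all with line 1 below (40%, with 17% of all genes). After median-ratio scaling these were again 4 of 10 (12.2% of all genes). The 1 called member, lower in line 1 (2.55% of all genes were), was FIE (AT3G20740), a core subunit of PRC2 that overlaps AT3G20730 and AT3G04025. It was at 4.61, 5.25 and 5.27 FPKM in line 1 and 6.5, 7.06 and 6.54 in line 2 (-0.35, SE 0.09, adjusted p = 0.0449, limma), and the call was lost with median-ratio scaling and without each of 5 of the 6 libraries, all but line 1 replicate 3. VRN2, another PRC2 subunit gene, was at 7.05, 6.7 and 8.4 FPKM in line 1 and 9.01, 10.08 and 9.47 in line 2 and missed the threshold (adjusted p = 0.066). Of 16 DNA methylation genes and 15 DNA damage and telomere genes none was called, and 5 of each list did not overlap, all with line 1 below (31.2% and 33.3% of the lists, 17% of all genes; medians -0.251 and -0.208). After median-ratio scaling 2 of the DNA methylation genes (12.5%, with 12.2% of all genes) and 5 of the DNA damage and telomere genes had line 1 below.

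Among 26 clock genes, ELF4 (AT2G40080), of the evening complex, was called higher in line 1 (2.07% of all genes were). PRR7 (AT5G02810), a pseudo-response regulator, was called lower (2.55% of all genes were). The libraries of 3 members did not overlap with line 1 above, and those of 7 with line 1 below (8.07% and 17% of all genes). With median-ratio scaling these were 4 and 5 members (11.8% and 12.2% of all genes). PRR7 was at 35.62, 36.9 and 33.83 FPKM in line 1 and 49.68, 53.32 and 47.28 in line 2, with line 1 at the level of WT (34.33, 31.07 and 35.03) and line 2 above (-0.49, SE 0.09, adjusted p = 0.0288, limma). ELF4 was at 3.37, 3.02 and 1.81 FPKM in line 1 and 1.39, 1.53 and 1.34 in line 2 (0.60, SE 0.15, adjusted p = 0.0458). The list median was -0.08, and neither gene was called without line 1 replicate 1, line 1 replicate 2, line 2 replicate 1 or line 2 replicate 3.

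Genes of nutrient uptake and defence chemistry gave 1 or 2 calls per list (4.63% of all genes tested were called), which were all lost without line 1 replicate 1, line 1 replicate 2, line 2 replicate 1 or line 2 replicate 3. IRT1 (AT4G19690), the main iron importer of the root, was the 1 call among 17 iron genes, at 111.44, 115.13 and 103.41 FPKM in line 1 and 65.65, 74.98 and 32.23 in line 2 (1.01, SE 0.26, adjusted p = 0.0468, limma), and line 2 overlapped WT (47.9, 80.1 and 65.54). Of 8 phosphate genes 2 were called, both lower in line 1: PS2 (AT1G73010), a phosphatase of phosphate starvation, at 1.46, 1.23 and 1.84 FPKM in line 1 and 3.49, 3.09 and 2.53 in line 2 (-0.69, SE 0.15, adjusted p = 0.0389), and the acid phosphatase gene PAP17 (AT3G17790), which overlaps AT3G17800, at 5.15, 4.94 and 5.64 FPKM in line 1 and 8.48, 7.54 and 6.64 in line 2 (-0.45, SE 0.11, adjusted p = 0.0439). The call of 1 of these 2 was lost with median-ratio scaling.

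Of 24 glucosinolate genes 1 was called in each direction. UGT74B1 (AT1G24100), a glucosyltransferase of glucosinolate synthesis, was at 79.84, 59.48 and 49.78 FPKM in line 1 and 41.93, 36.36 and 34.9 in line 2 (0.70, SE 0.14, adjusted p = 0.0358, limma). TGG2 (AT5G25980), a myrosinase that breaks glucosinolates down, was at 147.28, 77.11 and 162.98 FPKM in line 1 and 288.38, 181.7 and 281.26 in line 2 (-0.99, SE 0.24, adjusted p = 0.0433), below WT (344.76, 293.6 and 307.77) in all 6 trb45 libraries. EPF2 (AT1G34245), a peptide that limits stomata, was the 1 call among 10 genes of shoot apex, stomata and trichomes, at 2.52, 2.51 and 3.85 FPKM in line 1 and 6.85, 3.94 and 6.85 in line 2 (-0.78, SE 0.20, adjusted p = 0.046). Of all genes, 2.55% were called lower in line 1.

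Root and seed genes gave no call between the lines, although their levels varied. All 10 tested root genes overlapped between the lines, with 9 above 0 and a median of 0.401, and after median-ratio scaling 3 did not overlap, with line 1 above. The largest differences were of PRP3 and LRX1, cell wall protein genes of root hairs. PRP3 was at 193.14, 127.19 and 174.41 FPKM in line 1 and 78.01, 131.15 and 39.92 in line 2 (adjusted p = 0.0576, limma) and LRX1 at 44.61, 23.83 and 29.74 FPKM in line 1 and 15.55, 26.14 and 8.78 in line 2 (adjusted p = 0.062). Line 2 replicate 3 had the lowest value of both. The 13 tested seed and embryo genes also overlapped, with a median of 2.11 in line 1 replicate 3 and -0.281 in line 1 replicates 1 and 2, each against line 2.

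Jasmonate genes (26 tested, 7 not overlapping, median 0.227) and flavonoid and anthocyanin genes (15 tested, 4 not overlapping, median 0.273) leaned to line 1 without a call, and of the non-overlapping members all had line 1 above (8.07% of all genes did). Nuclear photosynthesis genes (24 tested, median -0.11) had no call, 1 non-overlapping member with line 1 above and 6 below (25% of the list, 17% of all genes), or 4 below after median-ratio scaling (16.7%, with 12.2% of all genes). Cold response genes (10 tested, median 0.142) had no call either, and 3 did not overlap, all with line 1 above (30%, with 8.07% of all genes). After median-ratio scaling this share was again 30% (11.8% of all genes). Salicylate and defence, nitrate, sulfur, auxin and shade, abscisic acid and RACK1 genes had no call, with medians between -0.093 and 0.231.

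Chloroplast-encoded genes held both signs. Of 65 tested, 2 were called higher and 3 lower in line 1 (2.07% and 2.55% of all genes). Line 1 lay below line 2 without overlap for 19 (29.2%, with 17% of all genes) and above for 5 (7.69%, with 8.07% of all genes), and the list median was -0.239. ATCG00210 was at 12.75, 120.7 and 70.82 FPKM in line 1 and 6.39, 2.75 and 2.76 in line 2 (3.39, SE 0.75, adjusted p = 0.0396, limma), and WT alone spanned 76.58, 9.84 and 15.07. ATCG00030 was at 9.45, 51.27 and 46.56 FPKM in line 1 and 5.14, 3.44 and 6.32 in line 2 (2.34, SE 0.60, adjusted p = 0.0471), with 35.45, 7.99 and 16.48 in WT. For both genes line 1 replicate 1 lay far below the other libraries of its line. ATCG00760 was at 26.1, 19.36 and 25.05 FPKM in line 1 and 54.07, 35.12 and 55.53 in line 2 (-0.99, SE 0.21, adjusted p = 0.0381) and ATCG00820 at 23.92, 19.62 and 26.11 FPKM in line 1 and 41.39, 37.13 and 70.44 in line 2 (-1.02, SE 0.25, adjusted p = 0.0455). The names of these genes are not in the reference used. Chloroplast transcripts mostly lack polyA tails, so that polyA libraries hold them in part only. Without line 1 replicate 1 only ATCG00210 of these 5 was called, and without line 1 replicate 2, line 2 replicate 1 or line 2 replicate 3 none. None of the 7 tested mitochondrial genes was called.

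Of 383 tested genes not annotated as protein coding, 4 were called higher and 19 lower in line 1 (2.07% and 2.55% of all genes). Line 1 lay below line 2 without overlap for 85 (22.2%, with 17% of all genes) and above for 12 (3.13%, with 8.07% of all genes; list median -0.128). After median-ratio scaling these were 77 of 382 (20.2%, with 12.2% of all genes) and 17 (4.45%, with 11.8%). Beside AT4G13495 and AT2G47895, the called members with the largest differences were AT3G17050, a pseudogene, at 5.14, 5.31 and 1.32 FPKM in line 1 and 0.58, 0.58 and 0.76 in line 2, and AT2G01010, an 18S ribosomal RNA gene, at 4.42, 4.2 and 1.6 FPKM in line 1 and 0.68, 0.94 and 1.08 in line 2. In both, line 1 replicate 3 lay nearer to line 2 than to replicates 1 and 2 (1.45, SE 0.30, adjusted p = 0.0378 and 1.14, SE 0.23, adjusted p = 0.0358, limma). Ribosomal RNA genes are repeated and lack polyA tails, so the value of AT2G01010 is uncertain, and it was 32.98, 32.05 and 30.05 FPKM in trb123. Apart from AT4G13495, only AT4G01593 of this list was called without line 1 replicate 1, and none without line 1 replicate 2, line 2 replicate 1 or line 2 replicate 3. In all, 824 of the 852 genes were protein coding.

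Position in the genome was read next. No run of at least 3 neighbouring tested genes was called in the same direction, and there were 30 runs of 2. On the nuclear chromosomes the genes described here made up between 4.12% (chromosome 2) and 4.92% (chromosome 5) of those tested. Among the 20 tested genes on each side of TRB4, 2 of 40 were called, near the 4.63% of all genes, both lower in line 1: the phosphatase gene PEPC1 (AT1G17710) at 0.59, 0.77 and 0.99 FPKM in line 1 and 1.76, 1.95 and 1.36 in line 2 (-0.59, SE 0.14, adjusted p = 0.0433, limma) and the myosin gene MYA1 (AT1G17580) at 4.12, 3.99 and 5.49 FPKM in line 1 and 6.32, 6.48 and 6.5 in line 2 (-0.44, SE 0.11, adjusted p = 0.0433). Of the fits that left out a library, only that without line 1 replicate 3 called these 2.

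Around TRB5, 5 of the 40 neighbours were called (4.63% of all genes), 3 with line 1 above and 2 with line 1 below; after median-ratio scaling 3 and 1 of 39 were. GER1 (AT1G72610), a germin-like protein gene that overlaps AT1G72600, was at 786.6, 542.42 and 617.08 FPKM in line 1 and 386.6, 388.34 and 271.67 in line 2 (0.89, SE 0.16, adjusted p = 0.0288, limma), above WT (307.91, 389.87 and 379.09) in every library of line 1. AT1G72910, annotated with a TIR domain, was at 1.84, 2.87 and 1.82 FPKM in line 1 and 1.09, 1.05 and 0.77 in line 2 (0.68, SE 0.15, adjusted p = 0.0394), and AT1G72790 at 21.84, 20 and 15.41 FPKM in line 1 and 13.6, 13.94 and 12.03 in line 2 (0.49, SE 0.13, adjusted p = 0.0487). CAD1 (AT1G72680), of the cinnamyl alcohol dehydrogenase family, was lower, at 10.68, 12.53 and 15.04 FPKM in line 1 and 19.68, 20.74 and 20.87 in line 2 (-0.65, SE 0.12, adjusted p = 0.0297), and so was CKL2, by -0.33 (adjusted p = 0.045). No gene of the TRB5 neighbourhood was called without line 1 replicate 1, line 1 replicate 2, line 2 replicate 1 or line 2 replicate 3.

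Each line's own comparison with WT was set beside these genes. Both comparisons use the same WT libraries. They also reuse the trb45 libraries by which these genes were chosen, so part of the pattern below follows from that choice. Of the 382 genes higher in line 1, 98 were called higher and 18 lower against WT in line 1 (7.77% and 10.4% of all genes were), and 14 higher and 220 lower in line 2 (14.9% and 15.6% of all genes). Their median differences from WT were 0.149 in line 1 and -0.542 in line 2. Of the 470 genes lower in line 1, 28 were called higher and 92 lower in line 1, and 265 higher and 6 lower in line 2, with medians of -0.142 and 0.361. In both directions the median of line 2 lay further from WT than that of line 1.

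Some genes were listed for 1 line only: 186 for line 1, with a median of 0.375 FPKM, and 200 for line 2, with a median of 0.34. A gene's absence from a table is no value. The 3 with the highest mean in line 1 were the seed storage gene SESA4 (1.17, 0.62 and 52.7 FPKM), ATCG00090 (6.76, 14.95 and 12.7) and ATCG00320 (2.87, 20.07 and 9.51). For line 2 they were ATCG00250 (9.57, 7.35 and 11.34), ATMG01380 (3.48, 5.6 and 8.77) and the uncharacterised AT3G04184 (5.58, 4.59 and 5.36). SESA4 was high in line 1 replicate 3 alone, and AT3G04184 was at 2.1, 1.91 and 2.35 FPKM in WT.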

How the data were processed

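RNA of whole seedlings was sequenced as stranded DNBSEQ mRNA libraries, per the labels. The authors deposited FPKM values with 2 decimals; those of line 1 carry a decimal comma, which was read as a point. STAR 2.7.1, DESeq2 and the build TAIR10 are named in the submitters' processing notes, while the program that counted fragments and its gene annotation are not given in the sources used here. The deposited tables were joined by identifier, identical repeats being used once (20114 genes in all 4 groups), and all columns of values were used.

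The test was limma 3.58.1 (R 4.3.3; trend) on log2(FPKM + 1), for genes that reached 1 FPKM in 3 or more libraries, with group means over all 12 libraries and Benjamini-Hochberg adjustment. The pseudocount of 1 understates differences of low genes. The scripts were first tested on simulated data with known differences. TRB genes also had an exact permutation test (scipy 1.17.1, Python 3.11.15). Depth was inferred by placing low FPKM values on whole fragments with exon lengths of TAIR10.1; 72.1% to 79.7% of low values per trb45 library came within 0.25 of a whole number, so no counts were recovered per gene and no count test was run.

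Genes named were TRB1 to TRB5, the 12 largest differences in each direction, at most 4 called members per list, and the 3 highest genes listed for 1 line only. Others were named after their values were seen. The members and lists were chosen with earlier results of these data known. Gene names and sequences came from TAIR10.1 (RefSeq), in which TRB4 and TRB5 are named by locus only. Alternatives covered the threshold, filter, pseudocount, scaling, eBayes, the libraries used and a replicate block.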

Additional observations from a re-analysis of the deposited data

Results flagged for a closer look

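A set of 4 genes was called against WT in opposite directions in the lines, lower in line 1 and higher in line 2, and the difference between the lines was itself called in limma. They were AT4G01593, a non-coding RNA that overlaps its antisense partner AT4G01595 (line 1 minus line 2 of -0.89, adjusted p = 0.0205), RPP4 (-0.78, adjusted p = 0.0106), EMB2820 (AT5G24670), annotated as a deaminase (-0.69, adjusted p = 0.0131), and AT3G19000, annotated as an oxygenase and overlapping AT3G19002 (-0.64, adjusted p = 0.0181). EMB2820 was at 8.53, 8.92 and 8.36 FPKM in line 1, 13.87, 14.37 and 15.09 in line 2 and 9.79, 10.92 and 11.66 in WT, so that the 3 groups did not overlap. AT3G19000 was at 16.55, 17.12 and 18.37 FPKM in line 1 and 28.87, 28.13 and 25.9 in line 2, with WT between (22.07, 22.68 and 20.57). AT4G01593 was listed at 0 in all trb123 libraries. All 4 were called without line 1 replicate 3, where 27.7% of all genes were, and without line 2 replicate 2. None was called without line 1 replicate 2 or without line 2 replicate 1. AT3G19000 was also lost without line 1 replicate 1, and EMB2820 and AT4G01593 without line 2 replicate 3.

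Seed storage genes listed for line 1 and not for line 2 were high in line 1 replicate 3. SESA4 was at 52.7 FPKM there and CRU2 at 21.06, while WT reached at most 0.39 and 0.14. In line 1 replicates 1 and 2 they were at 1.17 and 0.62 (SESA4) and at 0.36 and 0.31 (CRU2), and in trb123 at 5.83 to 16.67 and 1.4 to 4.65. What part seed tissue has in the differences of this library was not tested.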

How the results depend on the processing

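The 865 calls, and the 852 whose libraries did not overlap, became 4 and 4 at an adjusted p of 0.01, 80 and 77 with a minimum of 2-fold, 2 and 2 in a fit of the 6 trb45 libraries only, and 7 and 7 with line 1 replicate 3 alone against line 2. Leaving out single trb45 libraries gave 4 to 5180 and 4 to 5117; where a group is left with 2 libraries or 1, it is assumed to vary like the others. With the replicate number as a block, 1377 genes were called (845 shared with the 865) and 1202 did not overlap. Deviations of same-numbered libraries of the lines correlated at 0.111, 0.205 and -0.004, and those of libraries with different numbers at -0.259 to 0.187. Whether the replicate numbers pair the samples cannot be decided from these values. The other settings, on filter, pseudocount, scaling and eBayes, gave 769 to 934 calls. Of the calls 44.9% were higher in line 1; scaling by median ratio gave 67.8% and quantile normalization 53.8%. The sign of TRB1 turned after median-ratio (0.0506) and quantile scaling (0.0177) and without line 1 replicate 1 or 3 (range without single libraries -0.126 to 0.0692), that of TRB3 without line 1 replicate 2 (range -0.013 to 0.35) and with replicate 3 alone (-0.128), and that of TRB5 without line 1 replicate 3 (range -0.0035 to 0.111); the cause was not tested. Over 67 named genes and 1059 values, 683 kept direction and side of the threshold, 365 fell short of it, 4 passed it and 7 turned. Fold changes of genes near 1 FPKM are limited by depth and by the pseudocount.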

Other observations

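Line 1 replicate 3 alone was set against line 2, and 3 genes outside the groups described were picked after their values were seen. AIR1 (AT4G12550) was lower in line 1 replicate 3 by -1.61, and BGLU18 (AT1G52400), a beta-glucosidase gene, was higher by 1.3. AT3G01570 was higher by 1.63 (all in log2(FPKM + 1)). These 3 were not called with all libraries of line 1, and each value rests on 1 library.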
